A study of Homo sapiens with 12 samples.

Results

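The 10 genes MTOR, RHEB, SESN1, SESN2, SESN3, DEPDC5, NPRL2, NPRL3, TSC1, and TSC2 act in the control of mTORC1 or, as MTOR, within it. All 10 were found by symbol among the 58735 genes of the count table. The libraries came from TIGK cells, a human gingival keratinocyte line transfected with hTERT and kept at 48 mM glucose. The 4 groups were untreated control for 24 h, 500 μM Arg for 24 h, untreated control for 48 h, and 500 μM Arg for 48 h, with 3 libraries each (replicates A, B, and C). The controls received no Arg, and the base medium of the study also held none, so the control is a culture without added Arg rather than one at a usual Arg level. The line is a single immortalized line, and nothing in the labels says whether replicates were separate cultures, so the p-values measure the spread between these libraries, which may be technical.

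mTORC1 is the protein kinase complex that drives protein synthesis and cell growth when amino acids are present. Amino acids act through the Rag GTPases on the lysosome, which GATOR1 (DEPDC5, NPRL2, and NPRL3) switches off. GATOR2 opposes GATOR1, and the sestrins and the CASTOR proteins hold GATOR2 back when amino acids are scarce. A second branch, fed by growth factors and energy, ends in the TSC complex, which switches off RHEB, the small GTPase that activates the mTOR kinase. The name "amino acid sensors" covers the sestrins, whereas the other 7 members relay or receive the signal of either branch. The Arg sensors CASTOR1 and SLC38A9 are not among the 10.

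By edgeR, 0 of the 10 members passed the test between Arg and control at 24 h, where 6.63% of all genes did, and 0 at 48 h, where 0.117% did. DESeq2 called 1 member, NPRL3, at 24 h, where it called 7.98% of all genes. From 24 to 48 h, 3 members passed in the control and 4 in Arg, where 19.9% and 28.3% of all genes did. NPRL3 came nearest to passing between Arg and control, with log2 fold changes of -0.29 (SE 0.088) at 24 h and -0.27 (SE 0.098) at 48 h. Those of TSC2 were 0.27 (SE 0.10) and 0.18 (SE 0.098). From 24 to 48 h, NPRL3 fell by 0.37 on the log2 scale in the control and by 0.35 in Arg, and SESN3 rose by 0.55 in Arg (3 libraries a group). NPRL3 and TSC2 are shown by sequence because they were, of the members with an unadjusted p under 0.05 at 24 h, those on the same side at both times. The stretches are the longest run of the RefSeq promoter window (GRCh38.p14, the 250 bases before the RefSeq gene start) that lies outside annotated exons. The gene bounds of the count table start further upstream, at 138860 for NPRL3 (minus strand) and 2047465 for TSC2 (plus strand). The TSC2 stretch thus lies wholly inside those bounds, and the NPRL3 stretch partly. They are chr16:138678-138923 on the minus strand and chr16:2047867-2047966 on the plus strand, each printed 5′ to 3′ with motif matches in capitals.
NPRL3: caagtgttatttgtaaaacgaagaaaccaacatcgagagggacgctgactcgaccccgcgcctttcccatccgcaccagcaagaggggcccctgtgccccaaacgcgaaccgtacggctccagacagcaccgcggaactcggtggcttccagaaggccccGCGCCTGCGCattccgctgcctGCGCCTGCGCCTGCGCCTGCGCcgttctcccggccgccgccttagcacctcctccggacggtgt
TSC2: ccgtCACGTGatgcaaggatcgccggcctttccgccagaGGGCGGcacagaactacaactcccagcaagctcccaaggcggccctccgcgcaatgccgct

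In the NPRL3 stretch the capitals mark the NRF1 motif (GCGC, then any base, then TGCGC, on either strand), with 4 matches of which 3 overlap in a row. In the TSC2 stretch they mark an E-box, CACGTG, and a GC box, GGGCGG, both searched on either strand. The NRF1 motif was added to the search after the NPRL3 sequence was seen, and 5.07% of the 35116 RefSeq promoter windows of that length hold it. The E-box stands in 6.34% of the windows and the GC box in 42.6%. The cAMP response element (TGACGTCA, in 1.65% of windows) and the FOXO site (GTAAACA, in 2.98%) had 0 matches in the windows of all 10 members. A match is a description of the letters only.

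The libraries held 16542243 to 19040964 counts. The 9 keratinocyte markers were present in all groups, at a summed 42957 to 54988 CPM (counts scaled to a common library size). KRT5 made up most of that sum, so it does not show shifts of single markers. From 24 to 48 h, mean KRT16 rose from 447 to 865 CPM in the control and from 448 to 985 CPM in Arg. DSG3 rose from 109 to 250 CPM and from 143 to 303 CPM, in the same order. KRT17 fell from 3757 to 2323 CPM and from 3299 to 2529 CPM. ITGA6 fell from 1027 to 779 CPM and from 780 to 688 CPM. Of the fibroblast markers, COL1A2, COL3A1, and PDGFRA were near 0, whereas DCN, COL1A1, and LUM were present. Mean DCN rose from 31.7 CPM at 24 h to 66.7 CPM at 48 h in the control, and from 19.5 to 59.3 CPM in Arg. Mean COL1A1 rose from 12.4 to 24.3 CPM in the control and from 12.97 to 22.6 CPM in Arg. Mean LUM rose from 0.796 to 1.65 CPM in the control and from 0.847 to 1.84 CPM in Arg. The fibroblast list summed to 29.6 to 53.4 CPM at 24 h and 71.8 to 102 CPM at 48 h. The fibroblast list thus moved with time, and its part in the time comparisons was not tested. Melanocyte, leukocyte, and endothelial markers each summed to at most 3.05 CPM in any library. Of these, mean PMEL rose from 1.22 to 2.39 CPM in the control and from 1.57 to 1.90 CPM in Arg. VWF rose from 0.491 to 1.33 CPM in the control and from 0.490 to 1.52 CPM in Arg. A rise with time was therefore not particular to the fibroblast list. Control replicate B at 48 h stood apart, with 1.55% of its counts from mitochondrially encoded genes against 0.906% and 0.707% in replicates A and C. The Arg libraries of that time had 1.14% to 1.31%. For several members replicate B also lay near the Arg libraries, so singling it out was not independent of the tested values. Leaving it out therefore widens the difference between Arg and control for such genes. The calls at 48 h between Arg and control are given with and without it. In bulk RNA, fewer cells with a transcript and less of it per cell cannot be told apart.

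**Figure D1:**
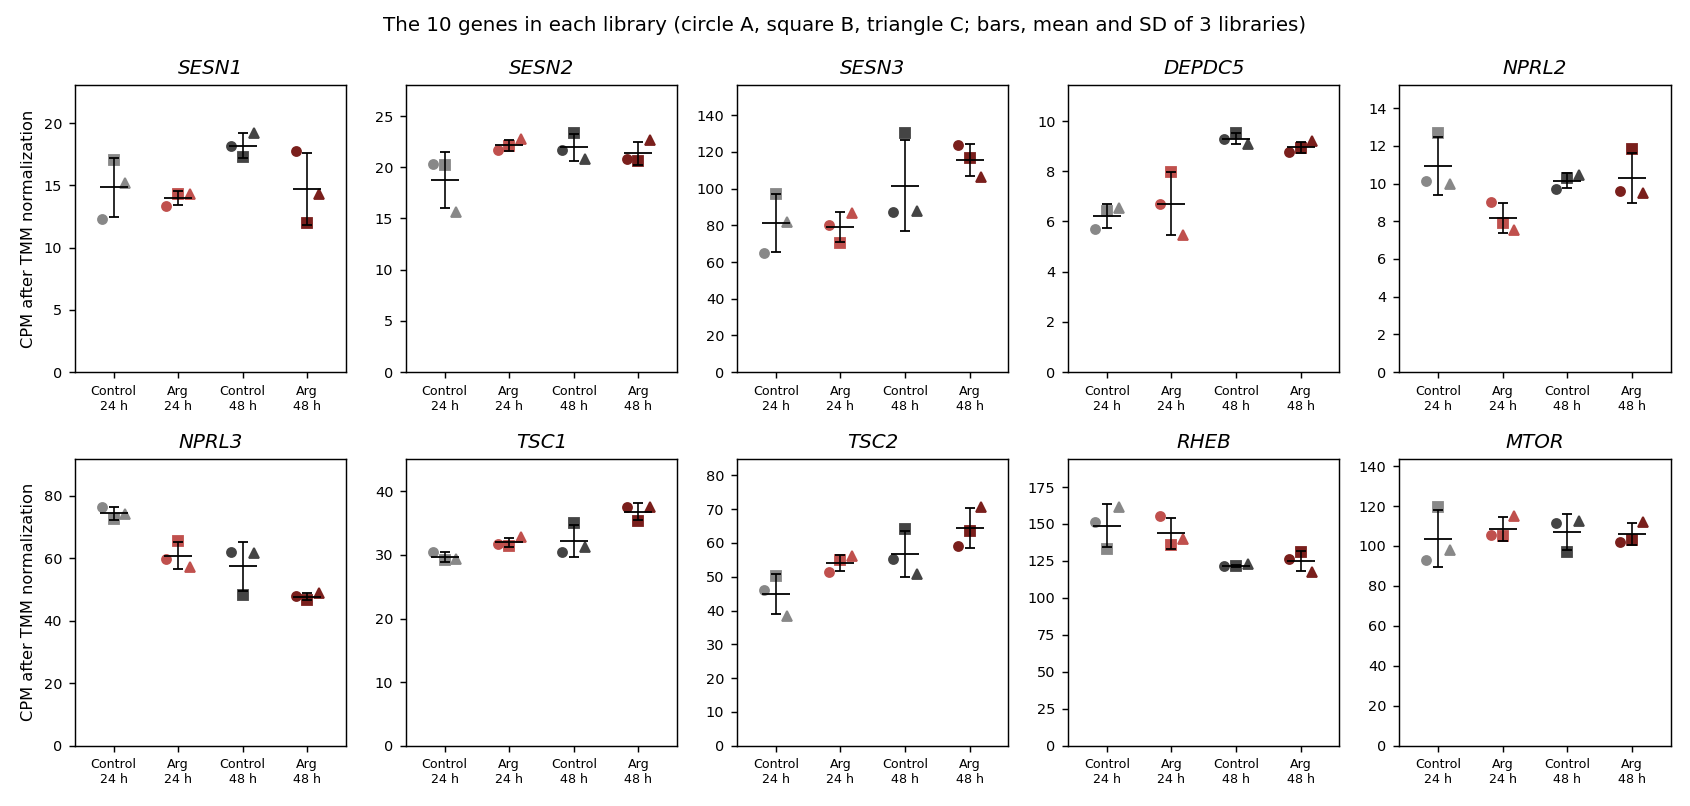
CPM after TMM normalization (y axis, from 0) of each of the 10 genes in the 4 groups (x axis). Symbols are the libraries A, B, and C, and bars show the mean and SD of 3 libraries. The 3 Arg libraries of NPRL3 at 24 h lie below all 3 control libraries, and control replicate B at 48 h, at 48.3 CPM, lies among the Arg libraries of that time.

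The 10 genes were all expressed well enough to be tested in each comparison. The raw counts of a library ranged from 102 to 184 for DEPDC5, the lowest, and from 2049 to 2799 for RHEB, the highest. The order of levels was compared per kilobase of deposited exonic length over the 12 libraries. RHEB led with 38.1 ± 4.12 CPM per kb (SD, n = 12). NPRL3 (9.09 ± 1.62), SESN3 (8.93 ± 1.97), and MTOR (8.76 ± 0.671) followed in CPM per kb, and their ranges overlapped, so their order is not resolved. SESN2 was at 6.10 ± 0.575 CPM per kb. SESN1 (3.01 ± 0.466), TSC2 (2.80 ± 0.442), NPRL2 (2.69 ± 0.391), and TSC1 (1.86 ± 0.170) formed the next stretch in CPM per kb, where each overlapped its neighbour. DEPDC5 was lowest, at 0.450 ± 0.0881 CPM per kb. It shares 1809 exonic bases (10.1% of its own) with ENSG00000285404 on the same strand, a gene with 0 counts. The reads of DEPDC5 are thus uncertain there. With the length of the Ensembl canonical transcript instead, chosen after seeing the data, RHEB stayed first (65.9 CPM per kb) and DEPDC5 last (1.19), whereas TSC2 (8.58) moved above SESN2 (6.08), so levels between genes depend on the length used. The 3 subunits of GATOR1 therefore differed in transcript level per kb by more than their spread, with NPRL3 above NPRL2 and NPRL2 above DEPDC5 under both lengths.

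The comparison of Arg with control asks whether added Arg changed the transcripts of this pathway. At 24 h, 0 of the 10 members passed an adjusted p of 0.05 in edgeR's quasi-likelihood test, where 6.63% of the 14279 genes tested did (2.79% higher and 3.84% lower with Arg). DESeq2 called 1, NPRL3, and 7.98% of all genes. Unadjusted, 3 members had a p under 0.05, against 22.8% of all genes, and 5 had groups that did not overlap, against 26.2% of all genes. The median log2 fold change of the 10 members was 0.014, and that of all genes 0.0030. The median absolute log2 fold change was 0.11 for the members and 0.17 for all genes.

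Among the sestrins at 24 h, SESN2, which binds GATOR2 when leucine is scarce (chromosome 1, 28259527 to 28282491, plus strand, GRCh38 as for all positions here), had 20.4, 20.3, and 15.6 CPM in the control and 21.7, 22.1, and 22.7 CPM with Arg. All 3 Arg libraries were above the control libraries. Its log2 fold change was 0.24 (SE 0.13, 95% confidence interval -0.025 to 0.50), with an adjusted p of 0.269. SESN1 (chromosome 6, 108986437 to 109094819, minus strand), a p53-induced sestrin, had 12.3, 17.04, and 15.2 CPM in the control and 13.3, 14.3, and 14.3 CPM with Arg, so the Arg libraries lay inside the control range. SESN3 (chromosome 11, 95165513 to 95232541, minus strand), the most abundant sestrin, had 64.9, 96.9, and 81.7 CPM in the control and 80.4, 70.2, and 86.6 CPM with Arg, again inside the control range. The log2 fold changes were -0.089 (SE 0.14) for SESN1 and -0.038 (SE 0.12) for SESN3.

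GATOR1 is the GTPase-activating complex that turns off RagA and RagB. NPRL3 (chromosome 16, 84271 to 138860, minus strand) had 76.6, 72.5, and 74.2 CPM in the control at 24 h and 59.7, 65.5, and 57.1 CPM with Arg. Every Arg library was below every control library, and the control spread was small (SD 2.08 CPM, n = 3). The log2 fold change was -0.29 (SE 0.088, 95% confidence interval -0.48 to -0.11), which is 0.816-fold, and the adjusted p of 0.0528 was just above the threshold. The adjusted p was below the threshold with DESeq2 (0.0306), without the low-count filter (0.0489), and with at least 10 counts in every library (0.0497), and it ranged from 0.0306 to 0.0747 over the 8 alternatives that keep every library. NPRL3 shares 451 exonic bases with MPG on the opposite strand (13057 and 3798 counts over all libraries), and the counting strand is not stated, so the reads of the 2 genes are uncertain there.

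NPRL2 (chromosome 3, 50347330 to 50351091, minus strand), the catalytic subunit of GATOR1, had 10.1, 12.7, and 9.96 CPM in the control at 24 h and 9.04, 7.91, and 7.52 CPM with Arg. The groups did not overlap, and the log2 fold change was -0.42 (SE 0.16, adjusted p 0.133), the largest of the 10 in size at 24 h. DEPDC5 (chromosome 22, 31753867 to 31908033, plus strand), the third subunit, had 5.68, 6.43, and 6.54 CPM in the control and 6.68, 7.97, and 5.48 CPM with Arg, and the groups overlapped. Its log2 fold change was 0.11 (SE 0.19).

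In the TSC complex, which inactivates RHEB, TSC2 (chromosome 16, 2047465 to 2089487, plus strand) is the GTPase-activating subunit. It had 46.0, 50.2, and 38.4 CPM in the control at 24 h and 51.5, 54.9, and 56.1 CPM with Arg, with no overlap. The log2 fold change was 0.27 (SE 0.10, 95% confidence interval 0.054 to 0.48), with an adjusted p of 0.124. TSC2 shares 784 exonic bases with PKD1 on the opposite strand (11979 and 5735 counts), so its value carries the same uncertainty as that of NPRL3. TSC1 (chromosome 9, 132891348 to 132946874, minus strand), the scaffold of the complex, had 30.5, 29.2, and 29.3 CPM in the control and 31.8, 31.4, and 32.8 CPM with Arg. These did not overlap, but the difference was small, at a log2 fold change of 0.11 (SE 0.096, adjusted p 0.549).

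RHEB (chromosome 7, 151466012 to 151520120, minus strand) had 151, 133, and 162 CPM in the control at 24 h and 155, 136, and 140 CPM with Arg. MTOR (chromosome 1, 11106535 to 11262507, minus strand), the kinase itself, had 93.1, 120, and 97.8 CPM in the control and 105, 105, and 115 CPM with Arg. Both overlapped between groups, with log2 fold changes of -0.053 (95% confidence interval -0.24 to 0.14) and 0.067 (95% confidence interval -0.13 to 0.27). RHEB has a processed pseudogene, RHEBP2, with 322 counts over all libraries against 29272 for RHEB.

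Without control replicate B at 24 h, NPRL3 (log2 fold change -0.32, adjusted p 0.0387) and TSC2 (0.35, adjusted p 0.0379) passed the test, in a fit where 10.4% of all genes did. With any other library left out at 24 h, 0 members passed, where 2.45% to 7.65% of all genes did. The adjusted p of NPRL3 ranged from 0.0387 to 0.223 over the 6 such fits.

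**Figure D2:**
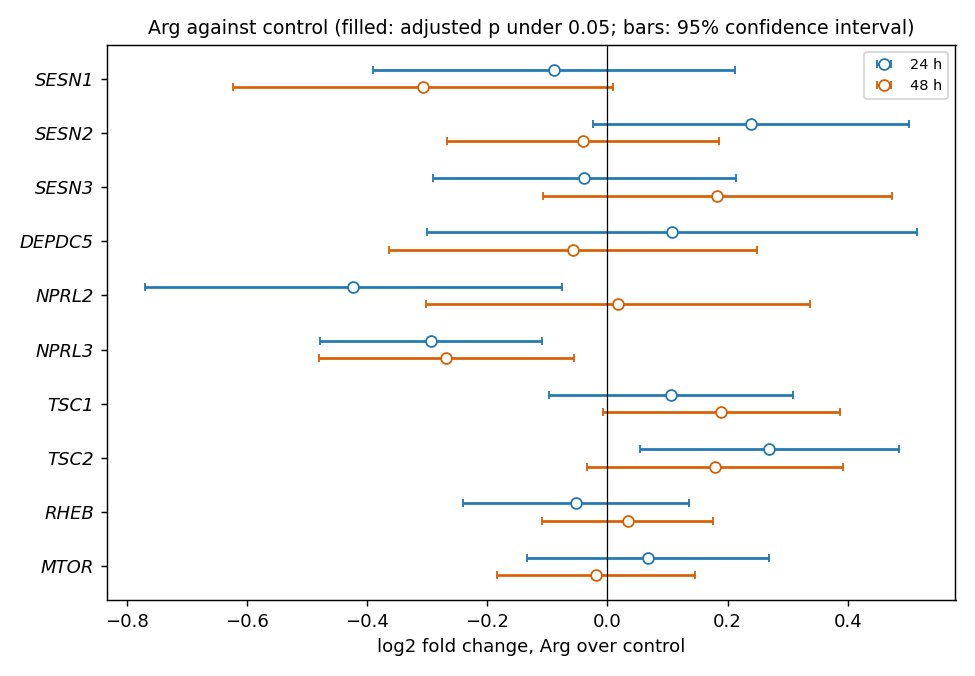
Log2 fold change of Arg over control (x axis) of each gene at 24 h (blue) and 48 h (orange). Bars are 95% confidence intervals, and a filled point would mark an adjusted p under 0.05. All 20 points are open, and NPRL3 is the member whose interval lies below 0 at both times.

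At 48 h, 0 of the 10 members passed in edgeR's quasi-likelihood test, where 0.117% of the 14562 genes did (0% higher and 0.117% lower with Arg). DESeq2 also called 0 members, where it called 1.27% of all genes. Unadjusted, 1 member, NPRL3, had a p under 0.05, against 13.4% of all genes. The groups of 1 member, TSC1, did not overlap, against 17.1% of all genes. The median log2 fold change was -0.00086 for the members and 0.0018 for all genes, and the median absolute log2 fold change was 0.12 and 0.13.

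For NPRL3 at 48 h, the control libraries had 62.2, 48.3, and 61.8 CPM and the Arg libraries 47.9, 46.6, and 48.8 CPM. Control replicate B lay within the Arg values, while control replicates A and C were above them. The log2 fold change was -0.27 (SE 0.098, adjusted p 0.268). For TSC2, the control libraries had 55.2, 64.2, and 50.8 CPM and the Arg libraries 59.0, 63.4, and 70.8 CPM. Control replicate B again sat among the Arg libraries, with replicates A and C below all of them, and the log2 fold change was 0.18 (SE 0.098, adjusted p 0.455). TSC1 had 30.4, 35.0, and 31.2 CPM in the control and 37.6, 35.3, and 37.5 CPM with Arg. Its groups did not overlap, although control replicate B came close to the lowest Arg library, and the log2 fold change was 0.19 (SE 0.091, adjusted p 0.388).

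For SESN3 at 48 h, the control libraries had 87.0, 130, and 87.6 CPM and the Arg libraries 124, 117, and 106 CPM. Control replicate B was the highest of the 6, and the log2 fold change was 0.18 (SE 0.13, adjusted p 0.583). SESN1 had 18.1, 17.3, and 19.2 CPM in the control and 17.8, 12.01, and 14.3 CPM with Arg, with 2 of the 3 Arg libraries below every control library. Its log2 fold change was -0.31 (SE 0.15, adjusted p 0.385). SESN2 had 21.6, 23.4, and 20.8 CPM in the control and 20.8, 20.6, and 22.7 CPM with Arg, and its groups overlapped.

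The other 4 members overlapped between groups at 48 h. NPRL2 ranged from 9.70 to 10.4 CPM in the control and from 9.49 to 11.8 CPM with Arg. DEPDC5 ranged from 9.11 to 9.53 CPM in the control and from 8.75 to 9.20 CPM with Arg. RHEB ranged from 121 to 123 CPM in the control and from 118 to 131 CPM with Arg, with a 95% confidence interval of the log2 fold change of -0.11 to 0.18. MTOR ranged from 96.8 to 112 CPM in the control and from 102 to 112 CPM with Arg, with an interval of -0.18 to 0.15.

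Without control replicate B at 48 h, SESN3 (log2 fold change 0.40, adjusted p 0.000317) and TSC2 (0.28, adjusted p 0.0212) were higher with Arg, and NPRL3 (-0.38, adjusted p 0.00101) was lower. In that fit 15.9% of all 14854 genes tested passed, so 3 of 10 members stand beside a raised background. With any other library left out, 0 members passed, where 0.0404% to 0.0736% of all genes did. At 48 h the mitochondrial share of that replicate moved with these values. At 24 h the share was lower with Arg, at 0.624% to 0.802% against 1.197% to 1.296% in the control. The log2 fold changes there were -0.29 for NPRL3, 0.27 for TSC2, and -0.038 for SESN3. For NPRL3 and TSC2 the direction relative to the share was thus opposite at 24 h. The part of the mitochondrial share in these values was not tested.

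**Figure D3:**
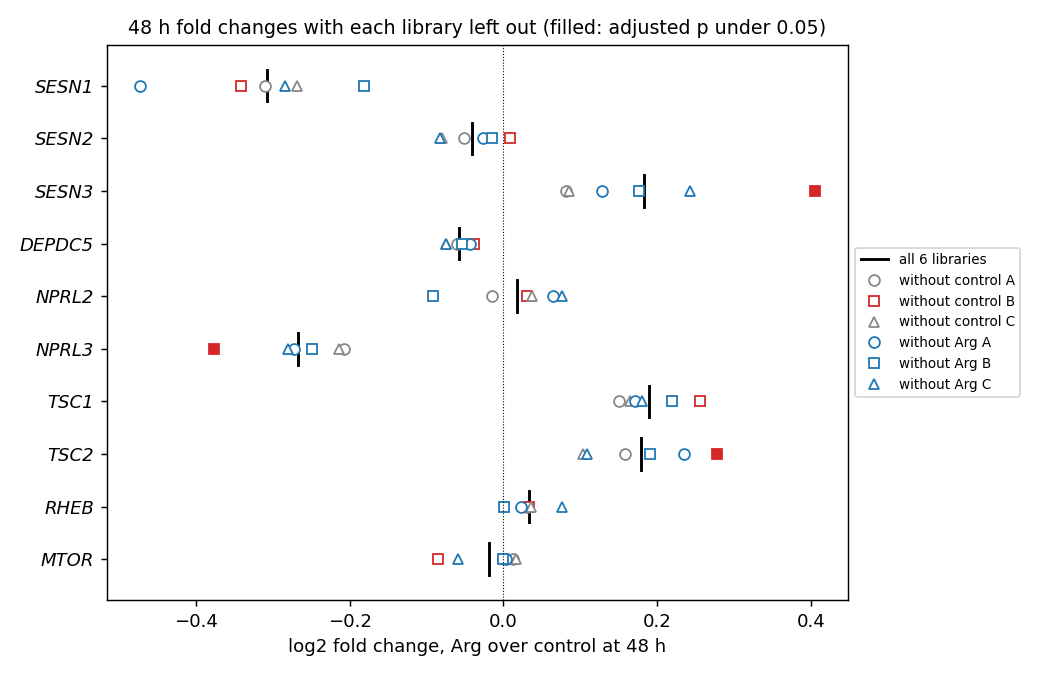
Log2 fold change of Arg over control at 48 h (x axis) of each gene with all 6 libraries (black line) and with each library left out (symbols). Filled symbols mark an adjusted p under 0.05. The 3 filled symbols, for SESN3, NPRL3, and TSC2, all come from leaving out control replicate B (red squares).

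An interaction term of Arg and time, fitted over all 12 libraries, asked whether the Arg difference itself changed with time. By edgeR, 0 of the 10 members passed, against 0.0132% of the 15148 genes, and 0 had an unadjusted p under 0.05, against 6.87% of all genes. DESeq2 also called 0, where it called 0.099% of all genes. The largest interactions in size were those of NPRL2 (log2 0.44, SE 0.22, adjusted p 0.726) and SESN2 (log2 -0.28, SE 0.16, adjusted p 0.793). For NPRL3 the interaction was 0.027 (95% confidence interval -0.25 to 0.30).

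The comparison of 48 h with 24 h asks how these transcripts moved with time in culture in each condition. It uses the same libraries as the Arg comparisons, so the values are set side by side and not read as independent. In the control, 3 of the 10 members passed edgeR's test, 1 higher and 2 lower, where 19.9% of the 14449 genes did (9.9% higher and 10% lower). Unadjusted, 4 members had a p under 0.05, against 34.1% of all genes, and 6 had groups that did not overlap, against 39% of all genes. With library size alone as the scaling, the genes called in the control were split into 1845 higher and 1008 lower in place of 1431 and 1451, and the members called were NPRL3, DEPDC5, and TSC2 in place of NPRL3, DEPDC5, and RHEB. In Arg, 4 members passed, 2 higher and 2 lower, where 28.3% of the 14398 genes did (14.3% higher and 14% lower). There, 7 members had an unadjusted p under 0.05, against 38.5% of all genes, and 7 had groups that did not overlap, against 42.2%. Library size alone gave 2568 higher and 1453 lower genes in place of 2060 and 2012, and the members called were NPRL3, SESN3, TSC2, DEPDC5, and TSC1 in place of NPRL3, SESN3, TSC2, and RHEB.

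NPRL3 fell in both conditions, from 74.4 ± 2.08 to 57.4 ± 7.88 CPM (SD, n = 3) in the control and from 60.8 ± 4.32 to 47.8 ± 1.11 CPM in Arg. The log2 fold changes were -0.37 (SE 0.10, adjusted p 0.0252) and -0.35 (SE 0.083, adjusted p 0.00385). Its adjusted p in Arg remained below the threshold in each of the 6 fits without a library and in the 8 other alternatives. RHEB fell from 149 ± 14.6 to 122 ± 0.674 CPM in the control (log2 fold change -0.28, SE 0.083, adjusted p 0.0324) and from 144 ± 10.2 to 125 ± 6.52 CPM in Arg (-0.20, SE 0.074). In Arg its adjusted p, 0.0499, stood at the threshold and lay above it in 5 of 8 alternatives and in 5 of the 6 fits without a library (all but that without Arg replicate B at 24 h). With library size alone, RHEB missed the threshold in both conditions (adjusted p 0.0665 and 0.166).

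SESN3 rose in Arg, from 80.4, 70.2, and 86.6 CPM at 24 h to 124, 117, and 106 CPM at 48 h, with no overlap. The log2 fold change was 0.55 (SE 0.085, adjusted p 8.0e-05), or 1.46-fold, and every alternative and every fit without a library kept it past the threshold. In the control the log2 fold change of SESN3 was 0.33 (SE 0.17, adjusted p 0.183), and it was 0.11 (adjusted p 0.607) without control replicate B at 48 h. That control difference passed without the low-count filter (adjusted p 0.0095) and in the replicate block fit (0.0079), and it missed the threshold in the other 6 alternatives that keep every library. The interaction of SESN3, which tests whether its change with time differed between Arg and control, was 0.22 (SE 0.20, adjusted p 0.888). TSC2 rose in Arg, from 54.2 ± 2.34 to 64.4 ± 5.93 CPM (log2 fold change 0.25, SE 0.084, adjusted p 0.0324), and had a log2 fold change of 0.34 (SE 0.12, adjusted p 0.0591) in the control. In the control TSC2 passed in 5 of 8 alternatives, which were DESeq2 (adjusted p 0.0434), library size alone (0.0384), no low-count filter (0.0186), the single model of 12 libraries (0.0249), and the replicate block (0.0058). The TSC2 call in Arg was lost in 4 of the 6 fits without a library (Arg replicate A or B at 24 h, Arg replicate B or C at 48 h) and in the single model (adjusted p 0.0941).

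DEPDC5 rose in the control, from 5.68, 6.43, and 6.54 CPM at 24 h to 9.28, 9.53, and 9.11 CPM at 48 h. The log2 fold change of 0.58 (SE 0.16, adjusted p 0.0264) was the largest in size of the 10 in the control. In Arg it was 0.42 (SE 0.17, adjusted p 0.077). For SESN1, SESN2, NPRL2, TSC1, and MTOR, no time difference passed by edgeR with TMM normalization in either condition, with log2 fold changes from -0.10 to 0.30 in the control and from -0.051 to 0.34 in Arg. With library size alone, TSC1 (log2 fold change 0.26, adjusted p 0.0321) and DEPDC5 (0.48, adjusted p 0.0455) passed in Arg. The same 3 members were called in the control without replicate B at 48 h, where 16.4% of all genes passed. The calls changed with the library left out, as did the share of all genes called, which was 19.9% with all libraries. Without control replicate A or control replicate C at 24 h, 0 members passed, where 5.59% and 6.7% of all genes did. Without control replicate A at 48 h only NPRL3 passed, where 12.4% of all genes did. Without control replicate C at 48 h NPRL3 and TSC2 passed, where 15.5% of all genes did.

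**Figure D4:**
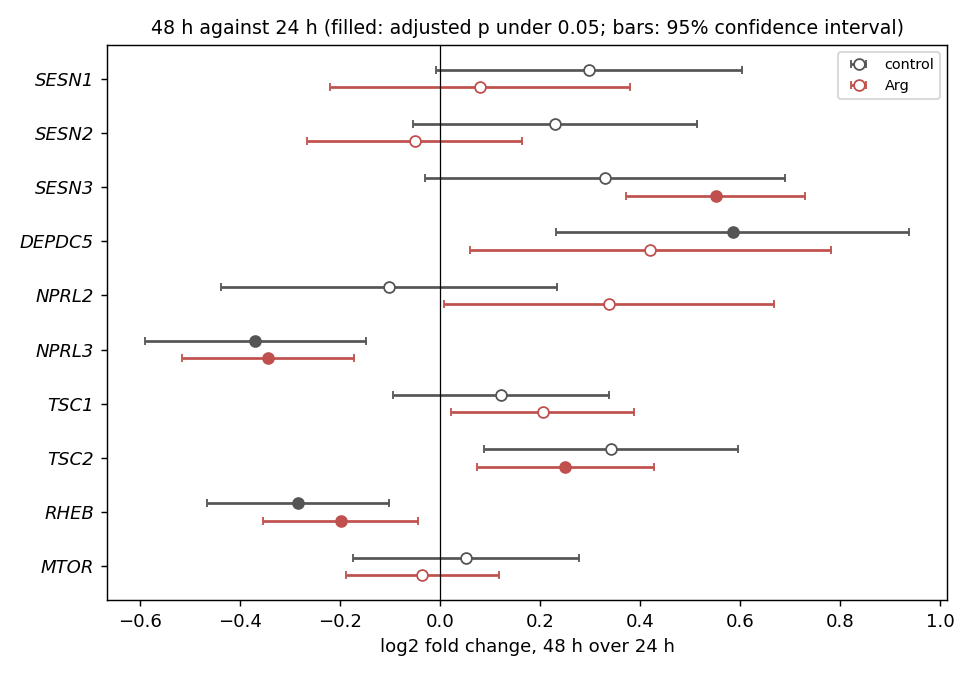
Log2 fold change of 48 h over 24 h (x axis) of each gene in the control (gray) and in Arg (red). Bars are 95% confidence intervals and filled points mark an adjusted p under 0.05. NPRL3 and RHEB are filled and below 0 in both conditions, DEPDC5 is filled in the control, and SESN3 and TSC2 are filled in Arg.

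The balance within the complexes was described as a ratio of levels per kb. NPRL3 over NPRL2 was 3.84 ± 0.579 in the control and 4.17 ± 0.469 with Arg at 24 h, and 3.16 ± 0.494 and 2.61 ± 0.365 at 48 h (SD, n = 3). Only the comparison of 24 and 48 h in Arg had groups that did not overlap, with an exact permutation p of 0.1, the smallest that 3 against 3 libraries can give. SESN3 made up 47.7 ± 4.54% of the sestrin sum per kb in the control and 44.9 ± 2.56% with Arg at 24 h. At 48 h its share was 48.8 ± 5.28% and 54.7 ± 2.68%. The SESN3 share in Arg did not overlap between 24 and 48 h, also at an exact permutation p of 0.1. TSC2 over TSC1 lay between 1.36 and 1.58 in group means and overlapped in every comparison. These ratios and shares use the deposited exonic lengths, and their size depends on the length used. With the Ensembl canonical transcript instead, TSC2 averaged 8.58 and TSC1 3.80 CPM per kb over the 12 libraries.

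The genes whose pattern over the 12 libraries was most like that of NPRL3 were ARHGEF28 (Pearson r of log2 CPM 0.984), PDLIM7 (0.976), LYN (0.974), PHLDA1 (0.973), and NOP14-AS1 (0.972), out of 15147 genes compared. For SESN1, they were GRAMD4 (0.886), ECEL1P1 (0.872), B3GALT4 (0.870), LGALS9 (0.861), and ZKSCAN3 (0.854). The 12 libraries share treatment, time, and depth, so these values are descriptions. ECEL1P1, B3GALT4, and LGALS9 reached at most 0.803, 1.77, and 1.45 CPM.

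The other genes of the pathway were taken from lists of 65 symbols, of which 63 were in the table and 61 were tested at each time. At 24 h, 0 were higher and 1 was lower with Arg, where 2.79% of all genes were higher and 3.84% lower. That gene was MLST8, the subunit shared by both mTOR complexes (log2 fold change -0.31, SE 0.082, adjusted p 0.0312). It had 114, 112, and 107 CPM in the control and 88.5, 86.2, and 95.5 CPM with Arg, with no overlap. It was one of the calls that did not outlast the loss of a library. Without control replicate A or C, 0 of the 61 passed, where 2.45% and 2.98% of all genes did. Without Arg replicate B or C, 0 passed too, where 2.74% and 2.6% of all genes did. With all libraries the share was 6.63%. The median log2 fold change of the 61 was -0.046, and 10 had an unadjusted p under 0.05, against 22.8% of all genes. At 48 h, 0 of the 61 passed by edgeR or DESeq2, 13 had an unadjusted p under 0.05 (13.4% of all genes did), and the median was -0.023. Without control replicate B at 48 h, 13 of them passed, 8 higher and 5 lower, in the fit where 15.9% of all genes did.

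CASTOR1, the cytosolic Arg sensor, had 41 counts over all libraries and was not tested. CASTOR2, its paralog, had 588 counts, with log2 fold changes of -0.20 (SE 0.30) at 24 h and -0.33 (SE 0.34) at 48 h. SLC38A9, the lysosomal Arg sensor, was at 19.2 ± 3.17 CPM in the control and 20.7 ± 1.58 CPM with Arg at 24 h, and at 20.3 ± 2.68 and 22.5 ± 0.560 CPM at 48 h. BMT2, the S-adenosylmethionine sensor also known as SAMTOR, had log2 fold changes of -0.15 and -0.060. RPTOR, the defining subunit of mTORC1, had 0.15 and 0.048. TBC1D7, the third subunit of the TSC complex, had -0.15 and -0.16. EIF4EBP1, an mTORC1 substrate, had -0.12 and -0.021. None of these passed at either time, with adjusted p-values from 0.294 to 0.936, and at 48 h none passed without control replicate B.

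DDIT4, a stress-induced inhibitor of mTORC1 that acts through the TSC complex, had 597, 640, and 624 CPM in the control at 24 h and 481, 556, and 582 CPM with Arg. At 48 h it had 820, 469, and 775 CPM in the control and 463, 420, and 454 CPM with Arg. The Arg libraries were lower at both times, and control replicate B at 48 h again sat close to the Arg libraries. The log2 fold changes were -0.20 (SE 0.081, adjusted p 0.141) and -0.63 (SE 0.15, adjusted p 0.148). Without control replicate B at 48 h, DDIT4 was lower with Arg at that time (log2 fold change -0.84, SE 0.056, adjusted p 3.4e-10), in the fit where 15.9% of all genes passed. DDIT4 fell from 24 to 48 h in Arg (log2 fold change -0.27, SE 0.073, adjusted p 0.0083), and had a log2 fold change of 0.15 (SE 0.16, adjusted p 0.528) in the control, which was 0.37 (adjusted p 0.0035) without control replicate B at 48 h.

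From 24 to 48 h, 3 of the 61 other pathway genes rose and 4 fell in the control, where 9.9% of all genes were called higher and 10% lower. In Arg, 7 of 60 rose and 13 fell, where 14.3% of all genes were called higher and 14% lower. ULK1, the autophagy kinase that mTORC1 restrains, rose in both (log2 fold changes 0.92 and 0.95). SEH1L, of GATOR2, fell in both (-0.60 and -0.47). MAPKAP1 (-0.38 and -0.37) and PRR5L (-0.55 and -0.87), of mTORC2, and MLST8 (-0.42 and -0.21) also fell in both. PRKAG2, a subunit of AMP-activated kinase, rose in both (0.32 and 0.36), and LAMTOR4, of the Ragulator, rose in the control (0.45). Without control replicate B at 48 h, PRKAG2 was 0.25 in the control and missed the threshold by edgeR (adjusted p 0.0927). In that fit ULK1 (0.61), LAMTOR4 (0.42), SEH1L (-0.59), MAPKAP1 (-0.35), PRR5L (-0.47), and MLST8 (-0.30) stayed past it, where 16.4% of all genes passed. In Arg, TFEB, the lysosomal transcription factor, rose by 1.25 on the log2 scale, RRAGC by 0.38, RICTOR by 0.35, and FNIP2 by 0.30. MIOS (-0.45), ITFG2 (-0.46), LAMTOR1 (-0.32), AKT1 (-0.35), AKT2 (-0.27), and TELO2 (-0.31) fell in Arg. The interaction passed for 0 of the 61 by edgeR or DESeq2, with 2 in edgeR at an unadjusted p under 0.05.

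**Figure D5:**
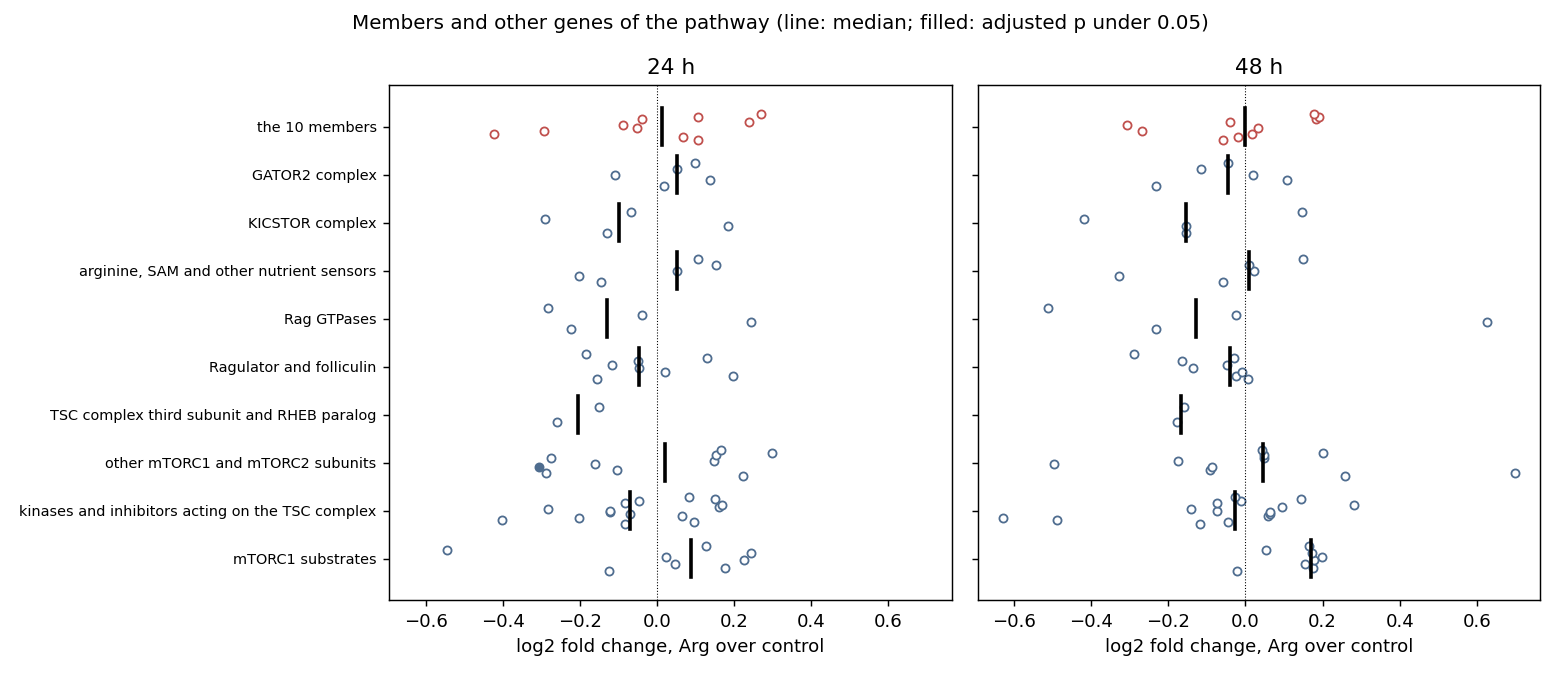
Log2 fold change of Arg over control (x axis) of the 10 members (red) and of the other pathway genes (blue) by group, at 24 h (left) and 48 h (right). Each point is a gene, lines are medians, and filled points mark an adjusted p under 0.05. MLST8 at 24 h, at -0.31, is the only filled point in either panel.

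Sestrin genes are known targets of ATF4, p53, and FOXO factors, so lists of other targets of each were set beside them. At 24 h, 6.63% of all genes passed and the median log2 fold change of all genes was 0.0030. There, 2 of 16 ATF4 targets rose with Arg (STC2, log2 fold change 0.62, and SLC7A11, the cystine transporter, 0.57), and 1 fell (ATF3, a stress-induced transcription factor, -1.39). Of the 14 p53 targets, 1 rose (PLK2, 0.39) and 0 fell. Of the 9 FOXO targets tested, 2 rose (FBXO32, 0.99, and IRS2, 0.32) and 3 fell (TXNIP, an inhibitor of thioredoxin that glucose also induces, -1.31, BNIP3, -0.49, and CITED2, -0.42). The median log2 fold changes of the lists at 24 h were 0.18, -0.087, and -0.21. At 48 h, 0 genes of the 3 lists passed by edgeR, where 0.117% of all genes did. Unadjusted, 11 of 39 had a p under 0.05 (13.4% of all genes did). DESeq2 called 1, and 1.27% of all genes. The count at 48 h was 4 without the low-count filter (2.1% of all genes were called), 1 in the single model (0.271%), and 2 with the replicate block (1.26%). Without control replicate B at 48 h it was 9, of which 4 were higher and 5 lower with Arg (DDIT4, also counted among the pathway genes, is 1 of the 5), in the fit where 15.9% of all genes passed. By edgeR with all libraries, the sestrins passed at neither time between Arg and control.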

How the data were processed

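Poly(A) RNA of 12 TIGK libraries was sequenced. Per the labels and the study's methods, the authors filtered reads with fastp, used STAR for mapping to GRCh38/hg38, and obtained gene counts from featureCounts. The deposited values are raw counts, which were not normalized. Tool versions, the gene annotation used for counting, and its strand option are not given in the sources used here. All count columns belong to these libraries, and 0 other columns were left out.

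The labels gave the treatment and the time of each library. The 10 members were taken by symbol. The members and the gene lists were chosen with earlier results of these data known. Each comparison was fitted over all genes of its 6 libraries (the interaction over 12) with edgeR 4.0.16 in R 4.3.3, using TMM normalization, the low-count filter of edgeR, and the quasi-likelihood test. Benjamini–Hochberg adjustment was made over all genes tested, and a gene was called at an adjusted p under 0.05. The scripts were tested on simulated data. For single values, exact two-sided permutation tests over libraries were used. With 3 against 3 libraries these cannot go below 0.1. All members are named with their values. Other pathway and regulator target genes are named if called, at most 3 per list and direction, with regulator targets given for the Arg comparisons, and 8 sensors and regulators are named always. The 5 genes most like a member were taken for the members with the smallest p at 24 and 48 h, NPRL3 and then SESN1. Exonic overlaps came from GENCODE v44, whose release may differ from that of the counts. All 10 members had a promoter window in RefSeq.

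Each result was recomputed with DESeq2 1.42.0, and in edgeR with the size factors of DESeq2 or with library size alone. The filter was dropped, or replaced by a minimum of 10 counts in each library. Further fits took 1 model for the 12 libraries, the replicate letter as a block, the table without mitochondrially encoded genes, and every subset that lacks 1 library. Some values of single pathway genes are not reported here.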

Additional observations from a re-analysis of the deposited data

How the results depend on the processing

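At 3 libraries per group, the log2 fold changes of the members had standard errors of 0.065 to 0.19 in the 2-group comparisons, which limits the smallest difference that could pass. The number of members called between Arg and control at 24 h was 0, where 6.63% of all genes were called (this share follows in brackets below). It was 1 with DESeq2 (7.98%), without the low-count filter (4.94%), and with at least 10 counts in every library (7%). It ranged from 0 to 2 without 1 library (2.45% to 10.4%). At 48 h it was 0 under all alternatives that keep every library (0.11% to 2.1%). Without 1 library at 48 h it was 0 to 3 (0.0404% to 15.9%). Between 48 and 24 h it was 3 in the control (19.9%), and 5 without the filter (12.4%). Without 1 library in the control it was 0 to 4 (5.59% to 22.2%). In Arg it was 4 (28.3%), 2 in the single model of 12 libraries (22.9%), and 5 with library size alone (27.9%). Without 1 library in Arg it was 2 to 4 (19.8% to 24.8%). For the interaction it was 0 throughout (0% to 0.297%).

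Of the other pathway genes, 2 were called at 24 h with DESeq2 (7.98% of all genes were) and without the filter (4.94%). Without 1 library, 0 to 3 were called at 24 h (2.45% to 10.4%). At 48 h, 3 were called without the filter (2.1%), 1 in the single model (0.271%), and 0 to 13 without 1 library (0.0404% to 15.9%). Between 48 and 24 h in the control, 12 were called in the single model (24.4%) in place of 7 (19.9%). Without 1 library, 2 to 11 were called in the control (5.59% to 22.2%) and 13 to 22 in Arg (19.8% to 24.8%). The interaction called 1 without the filter (0.295%) and 0 to 1 without 1 library (0% to 0.297%). The cause of these shifts was not tested.

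Same-letter libraries correlated by -0.051 to 0.11 in their deviations from the group means, and the main fits used no pairing. A correlation over all genes cannot show a pairing limited to some genes, which was not tested. With the letter as a replicate block, 5 members in place of 3 were called between 48 and 24 h in the control. There 14 other pathway genes were called in place of 7, and 28% of all genes in place of 19.9%. Between Arg and control at 48 h, the block called 1 other pathway gene, and 1.26% of all genes in place of 0.117%.

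Directions turned for values near 0. With library size alone, the change from 24 to 48 h in Arg was 0.021 for MTOR and 0.0057 for SESN2 in place of values below 0. Without 1 library, the log2 fold changes at 24 h ranged from -0.0059 to 0.18 (MTOR), -0.13 to 0.0074 (RHEB), -0.21 to 0.019 (SESN1), -0.18 to 0.11 (SESN3), and -0.036 to 0.23 (DEPDC5). At 48 h, they ranged from -0.085 to 0.017 (MTOR), -0.082 to 0.0085 (SESN2), and -0.091 to 0.076 (NPRL2). From 24 to 48 h in the control, MTOR ranged from -0.023 to 0.16 and NPRL2 from -0.17 to 0.012. In Arg, MTOR ranged from -0.079 to 0.0083 and SESN1 from -0.086 to 0.21. The interaction ranged from -0.083 to 0.088 for NPRL3 and from -0.17 to 0.012 for TSC2. None of these values had passed the test.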
